A study of Arabidopsis thaliana with 9 samples.

Results

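The genes described here are 4 auxin-response genes of Arabidopsis thaliana, each read by the 1 probe set that the platform's table pairs with that gene alone, out of 22810 probe sets on the array. They are IAA20 (AT2G46990), HAT2 (AT5G47370), GH3.3 (AT2G23170) and GH3.5 (AT4G27260, listed in the table as WES1). They were chosen by name, with the results of the comparisons below already known, so their values are a description and carry no test. RNA came from whole seedlings grown for 3 days in light at 22 °C, after 3 days in the dark at 4 °C, on medium with 1% sucrose. The 3 genotypes, with 3 arrays each, were untransformed Col-0, Col-0 transformed with the non-mutated SPL13 gene (SPL13), and Col-0 transformed with a mutant gene resistant to the microRNA miR156 (mSPL13). Both transgenes were driven by the native promoter. The 3 arrays of a genotype came from independent seed lots, per the labels, and the sources used here do not say whether they represent 1 or several transgenic lines.

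Auxin acts by bringing Aux/IAA proteins to TIR1/AFB receptors, which leads to their destruction and frees auxin response factors to switch on target genes. Many Aux/IAA genes are themselves auxin targets, which closes a feedback loop. IAA20 is an Aux/IAA protein without the canonical degron (domain II) that the receptors bind. HAT2 is an auxin-induced homeodomain-leucine zipper class II factor that represses transcription. GH3.3 and GH3.5 are acyl amido synthetases that join auxin to amino acids and so lower the pool of free hormone. They too are induced by auxin. IAA20 and HAT2 are called the regulators below, and GH3.3 and GH3.5 the conjugating enzymes.

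The regulators were lower in mSPL13 than in the other genotypes. The mean signals of the conjugating enzymes differed by less, in opposite directions. IAA20 had a mean signal 2.64-fold lower in mSPL13 than in SPL13 and 2.89-fold lower than in Col-0. For HAT2 these ratios of mean signals were 1.88 and 2.24. The mean signal of GH3.3 was 1.12 times that of SPL13 and 1.3 times that of Col-0, and that of GH3.5 was 0.904 and 0.858 times. In whole seedlings, fewer cells of a type and less RNA per cell cannot be told apart.

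IAA20 had signals of 182.8, 231.9 and 308.6 in Col-0 replicates 1, 2 and 3, and of 169.8, 241.3 and 248.6 in SPL13 replicates 1, 2 and 3. In mSPL13 they were 78.4, 98.1 and 73.4. All 3 mSPL13 arrays lay below all 6 others, whose lowest value was 169.8, while Col-0 and SPL13 overlapped. The means were 241.1 ± 63.4 for Col-0, 219.9 ± 43.5 for SPL13 and 83.3 ± 13.1 for mSPL13 (SD, n = 3 each). On a log2 scale with a pseudocount of 20.7, the change was -1.20 ± 0.20 (moderated SE) for mSPL13 versus SPL13 and -1.31 ± 0.20 versus Col-0. It was -0.11 ± 0.20 for SPL13 versus Col-0. The gene's mean signal in mSPL13 was at the 36.9th percentile of all probe sets, against the 55.4th in Col-0. A mean log2 value above 6.92, or a signal of about 100.6, was needed for testing, and IAA20 passed through its Col-0 and SPL13 arrays. At such low signals the pseudocount bears on the fold change, which was -0.79 and -0.88 with a pseudocount at the 40th percentile of all values, and -1.39 and -1.51 with none. Detection calls were not used here.

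HAT2 was read at higher signals, with 727.4, 625.3 and 543 in Col-0 replicates 1, 2 and 3, and 518.2, 554.5 and 522.3 in SPL13. In mSPL13 the values were 328.8, 256.4 and 261.4. The highest mSPL13 array was below the lowest of the 6 others (518.2). The mean signal was 631.9 ± 92.4 for Col-0, 531.7 ± 19.9 for SPL13 and 282.2 ± 40.4 for mSPL13 (SD, n = 3 each). The SPL13 mean was below the Col-0 mean, with 1 SPL13 array (554.5) above the lowest Col-0 array (543). Of all probe sets tested, 5.33% had all mSPL13 arrays below all others, as IAA20 and HAT2 had. The log2 fold change was -0.87 ± 0.14 (SE) for mSPL13 versus SPL13, -1.11 ± 0.14 versus Col-0, and -0.23 ± 0.14 for SPL13 versus Col-0. Counted from the largest fall among the 13647 probe sets tested, IAA20 had rank 18 and HAT2 rank 53 in mSPL13 versus SPL13. Against Col-0 the ranks were 33 and 65.

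The order of the arrays within a genotype was not the same for both regulators in every group. Col-0 replicate 1 had the highest HAT2 signal and the lowest IAA20 signal of its group, and Col-0 replicate 3 the reverse. In mSPL13, replicate 2 had the highest IAA20 and the lowest HAT2. In SPL13, by contrast, replicate 1 had the lowest signal of both genes.

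GH3.3, which conjugates auxin to amino acids, had signals of 830, 584.5 and 813.7 for Col-0, 692, 975.9 and 934.5 for SPL13, and 1048.6, 1018.4 and 840.2 for mSPL13. The SPL13 arrays overlapped both other genotypes. The lowest mSPL13 array was above the highest Col-0 array by a small margin, 840.2 against 830. Among all probe sets tested, 23% had non-overlapping groups in that comparison. The means were 742.7 ± 137 for Col-0, 867.5 ± 153 for SPL13 and 969 ± 113 for mSPL13 (SD, n = 3 each). The log2 fold change was 0.17 ± 0.16 for mSPL13 versus SPL13 (95% interval -0.19 to 0.52), 0.38 ± 0.16 versus Col-0 (0.03 to 0.74) and 0.22 ± 0.16 for SPL13 versus Col-0 (-0.13 to 0.57). The interval of the first comparison leaves room for a rise of up to 0.52 and for a fall of up to 0.19 on the log2 scale. The interval versus Col-0 held rises alone, without adjustment for the number of probe sets tested, and limma did not call GH3.3 there.

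GH3.5, which acts on auxin and on salicylic acid, had means that ran the other way by small amounts. Its 95% intervals below all held both rises and falls. Its signals were 1033.8, 1048.1 and 732.1 for Col-0, 1014, 857.1 and 800.4 for SPL13, and 799.8, 771.8 and 842.9 for mSPL13. The 3 genotypes overlapped, and Col-0 replicate 3 was the lowest of the 9 arrays. The mean signal was 938 ± 178 for Col-0, 890.5 ± 111 for SPL13 and 804.8 ± 35.8 for mSPL13 (SD, n = 3 each). The log2 fold change was -0.14 ± 0.15 for mSPL13 versus SPL13 (95% interval -0.45 to 0.18), -0.20 ± 0.15 versus Col-0 (-0.51 to 0.12) and -0.06 ± 0.15 for SPL13 versus Col-0 (-0.38 to 0.25).

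**Figure D1:**
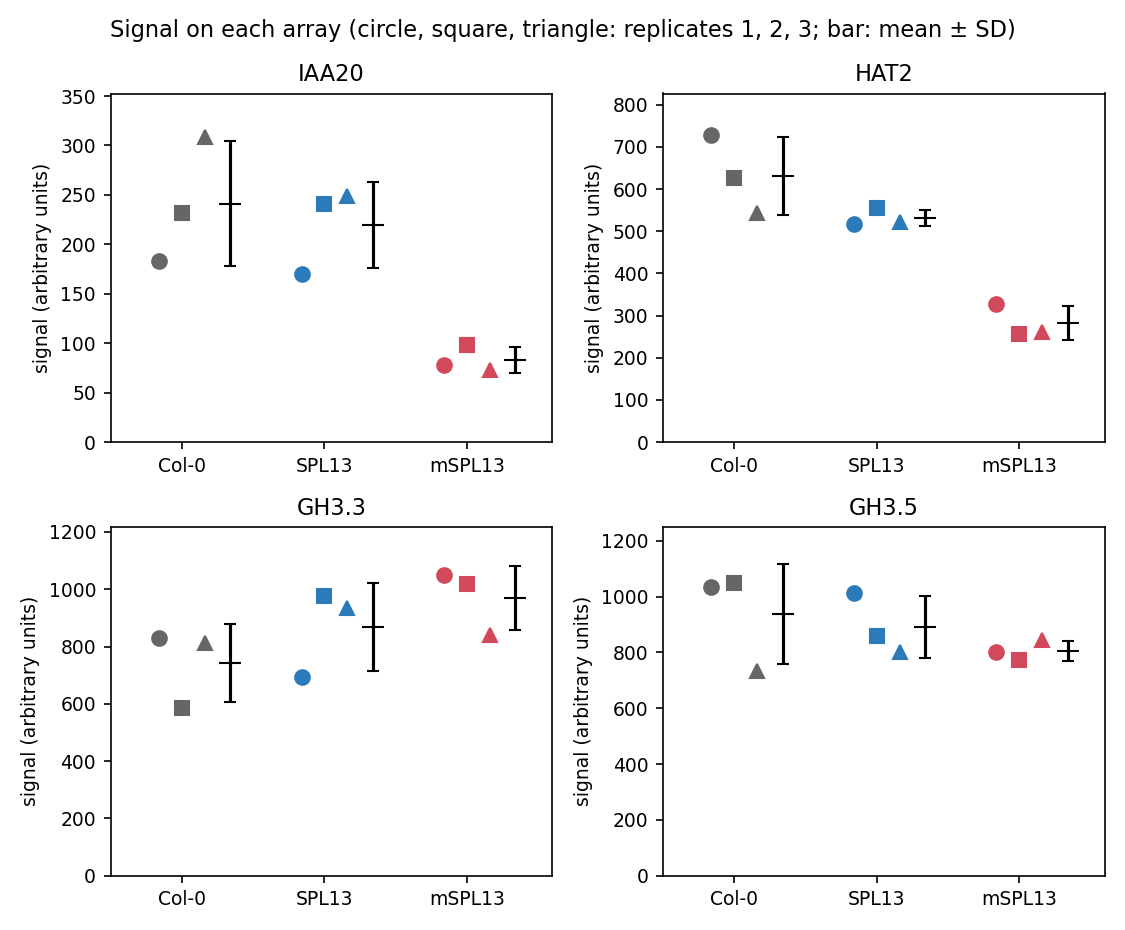
Signal (arbitrary units, linear axis from 0) of IAA20, HAT2, GH3.3 and GH3.5 on each of the 9 arrays, by genotype, with circles, squares and triangles for replicates 1, 2 and 3 and a black bar for the mean ± SD. The mSPL13 points of IAA20 (73.4 to 98.1) and HAT2 (256.4 to 328.8) lie below all points of the other genotypes, while those of GH3.5 overlap both.

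The order of levels was thus the same for both regulators, with Col-0 highest, SPL13 close below it and mSPL13 lowest. Col-0 and SPL13, neighbours in that order, overlapped for each of the 4 genes. For GH3.3 the order of the means was reversed, with Col-0 lowest and mSPL13 highest, and SPL13 overlapped both neighbours. For GH3.5 no neighbours were separated. The highest of the 9 arrays exceeded the lowest 4.2-fold for IAA20, 2.84-fold for HAT2, 1.79-fold for GH3.3 and 1.43-fold for GH3.5.

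In limma's fit across all probe sets, with calls at a Benjamini-Hochberg adjusted p under 0.05, 2 of the 4 genes (IAA20 and HAT2, both lower) were called in mSPL13 versus SPL13, where 3.03% of all probe sets were called. The same count held in mSPL13 versus Col-0, where 4.37% of probe sets were called. At a limma unadjusted p under 0.05, GH3.3 was added there, making 3 genes, against 2 in mSPL13 versus SPL13. The comparisons share the mSPL13 arrays. In SPL13 versus Col-0, 0 of the 4 genes were called by limma, with 0.0513% of all probe sets called. At a limma unadjusted p under 0.05 the count there was 0 as well. The share of all probe sets under that unadjusted limit is not given here, so the percentages apply to the adjusted calls alone. Because the genes were selected with these calls known, nothing is read from their number.

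The regulators and the conjugating enzymes were set side by side as differences from each gene's Col-0 mean, averaged per class on each array. The regulators averaged -1.13, -1.17 and -1.32 (log2) on mSPL13 replicates 1, 2 and 3, and the enzymes 0.15, 0.10 and 0.03. On the SPL13 arrays the regulators averaged -0.35, -0.07 and -0.09, and the enzymes 0.02, 0.15 and 0.07. The gap between the classes, regulators minus enzymes, was -1.30 ± 0.04 in mSPL13 and -0.25 ± 0.11 in SPL13 (SD, n = 3 each), and it ranged from -0.23 to 0.17 on single Col-0 arrays. In mSPL13 the SD was 0.10 for the regulators alone and 0.06 for the enzymes alone. The genes were chosen with their changes known, so the gap carries no test. The enzymes' class average hides that in mSPL13 the GH3.3 mean was above and the GH3.5 mean below that of Col-0.

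**Figure D2:**
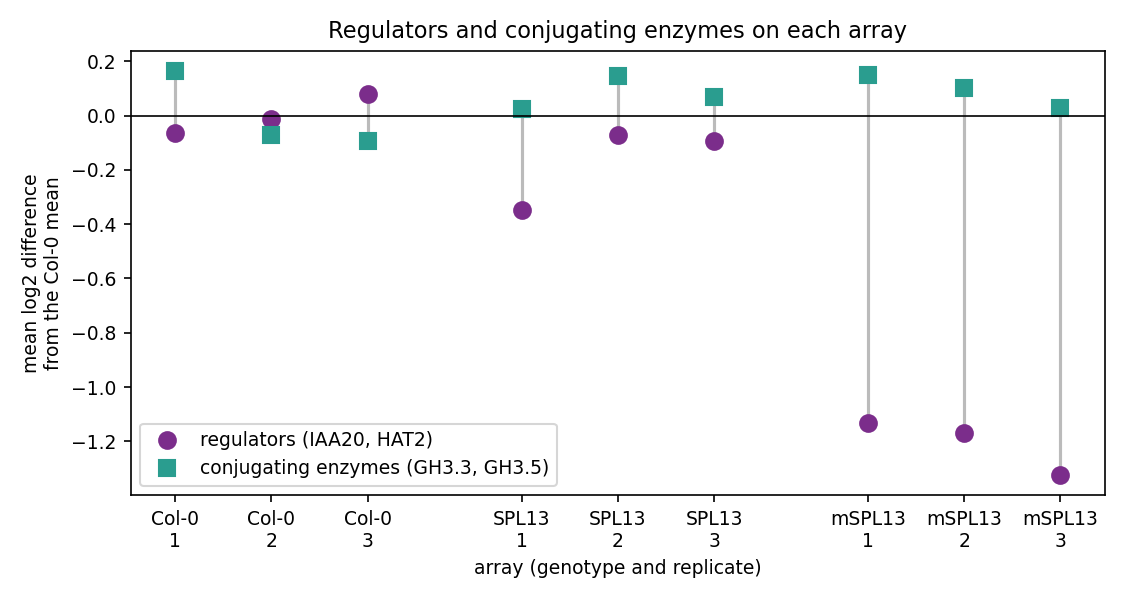
Mean log2 difference from the Col-0 mean for the regulators IAA20 and HAT2 (circles) and the conjugating enzymes GH3.3 and GH3.5 (squares) on each array, joined by a grey line. The enzymes stay between -0.09 and 0.16 on all 9 arrays, and the regulators lie between -1.13 and -1.32 on the 3 mSPL13 arrays and between -0.35 and 0.08 on the others.

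Some properties of the arrays moved along with genotype. The ratio of 3′ to 5′ signal of the GAPDH control, which rises as RNA breaks down, was 1.05 ± 0.0497 for mSPL13, 0.951 ± 0.0998 for SPL13 and 0.977 ± 0.0292 for Col-0 (SD, n = 3 each), so that mSPL13 lay highest, above all Col-0 arrays and with an overlap with SPL13. For ubiquitin this ratio was 1.21 ± 0.0987 for mSPL13, 1.07 ± 0.019 for SPL13 and 1.12 ± 0.0755 for Col-0, and the mSPL13 arrays (1.1 to 1.28) lay above all SPL13 arrays (1.05 to 1.09) and overlapped Col-0. For actin it was 2.87 ± 0.521, 2.59 ± 0.366 and 2.6 ± 0.0917 in the same order, with all genotypes overlapping. An older GAPDH control pair on the array gave 0.957, 0.919 and 0.882, also overlapping. All 4 ratios thus had their highest mean in mSPL13, and their part in the lower IAA20 and HAT2 signals was not tested. The median log2 difference of 66 chloroplast-encoded probe sets from the Col-0 mean was between -2.35 and -0.80 on the SPL13 arrays and between -0.03 and 0.30 on the mSPL13 arrays. Without SPL13 replicate 1, which had the lowest chloroplast median, the change in mSPL13 versus SPL13 was -1.36 for IAA20 and -0.89 for HAT2. The root markers PYK10, EXPA7 and EXPA18 and the shoot markers RCA, PRK and LHCB4.2 were all read well above the filter on every array (lowest signals of 523.6 for EXPA7 and 9903.8 for PRK), and limma called 0 of these 6 in any comparison. At an unadjusted p under 0.05 EXPA18, a root hair expansin, was lower in both transgenic genotypes than in Col-0 (log2 fold changes of -0.50 ± 0.15 in mSPL13 and -0.34 ± 0.15 in SPL13). The shoot marker PRK differed at that level too, with -0.24 ± 0.11 in mSPL13 versus SPL13 and 0.27 ± 0.11 in SPL13 versus Col-0.

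The auxin pathway was followed further through lists of 122 genes, covering Aux/IAA repressors, class II homeodomain-leucine zipper factors, GH3 enzymes, response factors, receptors, synthesis, inactivation, transport and a few other auxin targets. The table gave 22 of them a probe set of their own, and 11 passed the filter on low signal, the 4 genes above included. No gene of the response factor, receptor or transport lists, or of the SAUR family, was paired with a probe set of its own, and these were not analysed here.

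Of the 7 other auxin genes tested, 1 was lower and 0 were higher in mSPL13 than in SPL13, and against Col-0 2 were lower and 0 higher, at the same limma threshold. The backgrounds for lower calls are 1.17% and 2.3% of all probe sets. The lists were made with earlier results of these data known, the fall of UGT74D1 versus Col-0 among them, so nothing is read from these counts. The median log2 fold change of the 7 genes was -0.06 versus SPL13 and -0.09 versus Col-0, beside -0.00055 and 0.01 for all probe sets. In SPL13 versus Col-0 limma called 0 of the 7, with a median of -0.20. There 1 gene had a limma unadjusted p under 0.05, a level for which no share of all probe sets is given.

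The gene that passed in both mSPL13 comparisons was AT1G14120, from the list of auxin inactivation and conjugate release. AT1G14120 was entered there as DAO2 from general knowledge, and is named by locus because the annotation used here does not give that name. Its signals were 947.1, 1091.9 and 1020.9 for Col-0, 836.4, 885.4 and 860.7 for SPL13, and 582.8, 559.4 and 558 for mSPL13. The 3 genotypes did not overlap. Of all probe sets tested, 5.33% had all mSPL13 arrays below all others, and the share with all 3 genotypes apart is not given here. AT1G14120 fell by 0.59 ± 0.11 on the log2 scale versus SPL13 (limma adjusted p = 0.00996). Versus Col-0 the fall was 0.82 ± 0.11 (limma adjusted p = 0.00097). All 20 other processing settings called AT1G14120 in both comparisons, with limma adjusted p between 0.00433 and 0.0446 versus SPL13. These settings reuse the same arrays and add no test. In SPL13 versus Col-0 AT1G14120 differed by -0.24 ± 0.11 and did not pass (limma adjusted p = 0.557, unadjusted p = 0.0462). AT1G14130, the neighbouring locus in the same list, was at 0.10 ± 0.14 versus SPL13 and -0.09 ± 0.14 versus Col-0 and did not pass.

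UGT74D1, a glucosyltransferase that acts on auxin and related compounds, fell by 0.58 ± 0.14 on the log2 scale in mSPL13 versus Col-0 (limma adjusted p = 0.0309), a change already known when the list was made. Its signals were 1601.1, 1697.3 and 1551.5 for Col-0, 1183.8, 1428.1 and 1512.1 for SPL13, and 1132.1, 1242.4 and 888 for mSPL13. The SPL13 arrays lay between the others and overlapped mSPL13, and the change versus SPL13 was -0.34 ± 0.14 (limma adjusted p = 0.225). The call versus Col-0 was lost without Col-0 replicate 1 or 2, without mSPL13 replicate 1 or 3, and with no filter on low signal (limma adjusted p = 0.0601 to 0.116 in these 5 fits).

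The other genes of the Aux/IAA and GH3 lists that passed the filter, and LBD16, did not pass in either mSPL13 comparison. IAA34, an Aux/IAA gene below the filter, is described further on. IAA18, an Aux/IAA protein, had mean signals of 712.5 ± 177 for Col-0, 702.4 ± 23.4 for SPL13 and 725.6 ± 38.6 for mSPL13 (SD, n = 3 each), and its log2 fold change was 0.04 ± 0.15 versus SPL13 and 0.05 ± 0.15 versus Col-0. GH3.17, which conjugates auxin to glutamate, was at -0.06 ± 0.18 versus SPL13 and -0.26 ± 0.18 versus Col-0. Its 3 Col-0 arrays ranged from 646.6 to 1178.4 and spanned all mSPL13 values. Without Col-0 replicate 3, its lowest array, the change versus Col-0 was -0.52 and passed (limma adjusted p = 0.0332, against 0.377 to 0.846 in the other 19 settings). GH3.9 was read near the filter, at 80.6 to 126.4, with changes of -0.06 ± 0.18 and -0.08 ± 0.18. LBD16, a factor of lateral root initiation induced by auxin, was at -0.13 ± 0.17 versus SPL13 and -0.03 ± 0.17 versus Col-0. HAT2 was the single class II homeodomain-leucine zipper gene of 10 with a probe set of its own, so its paralogues could not be set beside it.

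**Figure D3:**
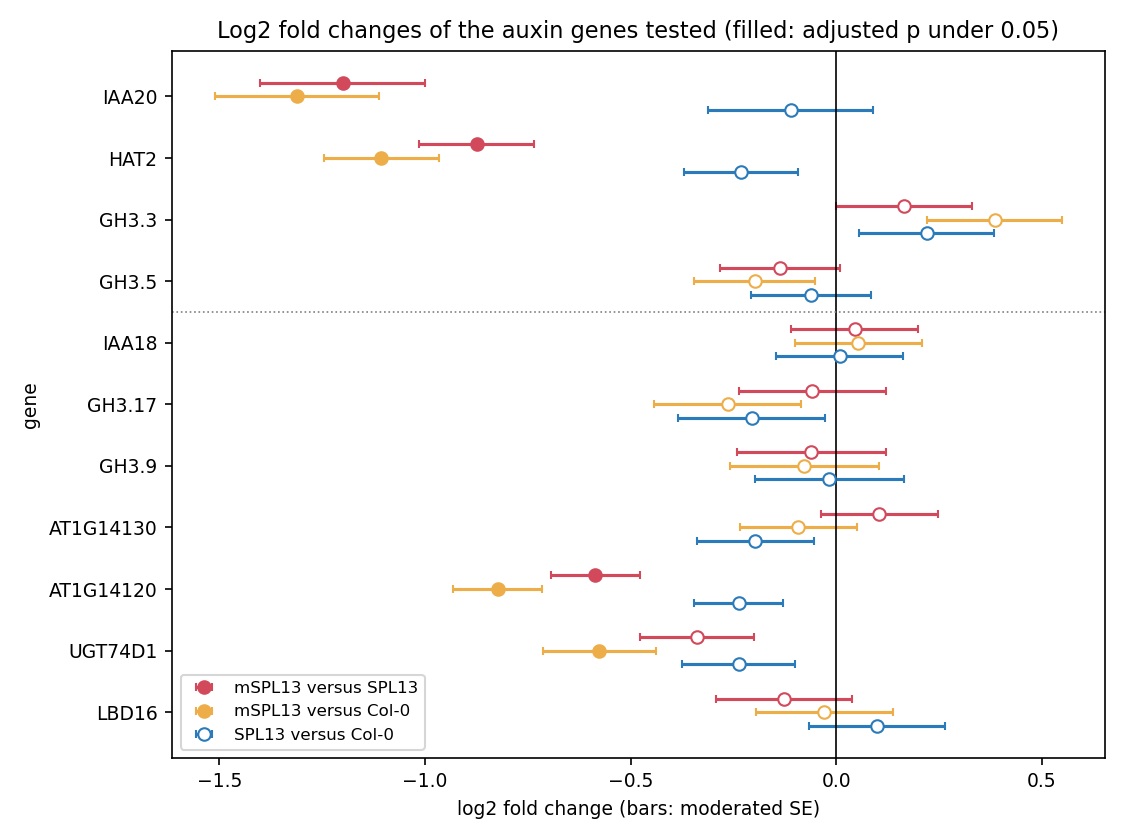
Log2 fold change with its moderated SE for the 4 genes (above the dotted line) and the 7 other auxin genes tested, in the 3 comparisons, with filled symbols for an adjusted p under 0.05. IAA20, HAT2 and AT1G14120 are filled in both mSPL13 comparisons, UGT74D1 in that with Col-0, and none is filled in SPL13 versus Col-0.

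A further 11 auxin genes had mean signals below the filter. Among them were IAA29, IAA30, IAA31, IAA33 and IAA34, the other Aux/IAA genes with a probe set of their own. IAA30 and IAA31, which like IAA20 lack the canonical degron, had signals of 16.8 to 77.2 and of 39.1 to 77.6 over the 9 arrays. In both, the mSPL13 arrays overlapped those of Col-0. For IAA30 the SPL13 arrays (16.8 to 43.6) lay below all Col-0 arrays (63.4 to 77.2). In a fit with no filter on low signal, its log2 fold change in mSPL13 versus SPL13 was 0.45 ± 0.26, opposite in sign to that of IAA20, and was not called. IAA29 ranged from 26.6 to 93.1 and IAA33 from 12.9 to 44.6. YUC2, an enzyme of auxin synthesis, was just under the filter at 62.3 to 118.1. GH3.1, YUC4, YUC6, UGT84B1 and LBD29 were at 40.7 or below on all 9 arrays. Among these, YUC6 was higher in mSPL13 (12 to 36.8) than in SPL13 (2 to 5.8). That change was 0.91 ± 0.22 in the fit with no filter and was not called (limma adjusted p = 0.0859).

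IAA34, another Aux/IAA gene without that degron, is named here because its values were seen to differ. Its signals were 135.1, 196.2 and 130.4 for Col-0, 103.4, 124.4 and 84.8 for SPL13, and 38.7, 39.1 and 42.1 for mSPL13. The 3 genotypes did not overlap, in the same order as for IAA20 and HAT2. The share of probe sets with all 3 genotypes apart is not given here, so nothing is read from that separation. In the fit with no filter on low signal, IAA34 was the 1 gene of these 11 called in mSPL13 versus SPL13 (log2 fold change -1.03 ± 0.20, limma adjusted p = 0.0424) and in mSPL13 versus Col-0 (-1.51 ± 0.20, limma adjusted p = 0.00606). That fit called 1.04% and 1.64% of 22746 probe sets. In SPL13 versus Col-0 its change was -0.48 ± 0.20 (limma adjusted p = 0.655). All 3 mSPL13 signals lie below the level needed for testing, so the size of the change depends on how low signals are treated.

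**Figure D4:**
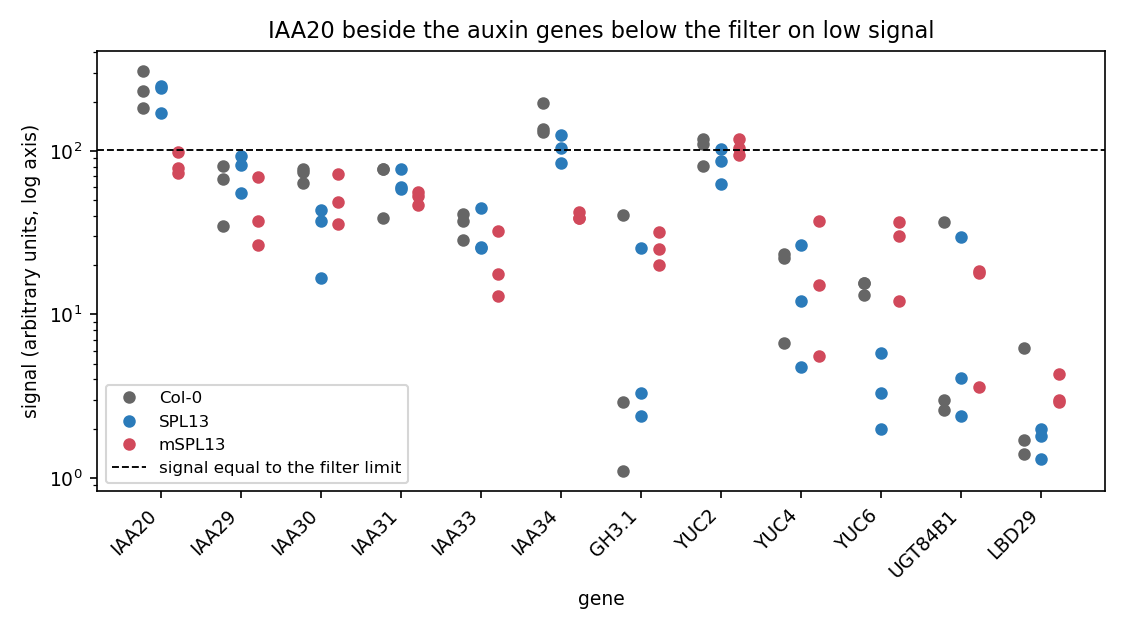
Signals (arbitrary units, log axis) of IAA20 and of the 11 auxin genes below the filter on the 9 arrays, by genotype, with a dashed line at the signal equal to the filter limit. IAA34 is between 38.7 and 42.1 in mSPL13 and between 84.8 and 196.2 in the other genotypes.

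To place the 4 genes among others, the 5 genes with the most similar pattern were taken for each from 7312 probe sets of 1 gene, by Pearson's r of log2 values over the 9 arrays. These r values describe arrays that share the 3 genotypes, so a common difference between genotypes is enough to raise them. For IAA20 the nearest were AT1G14340, AT3G43670, AT3G16990, UBC16, a ubiquitin-conjugating enzyme, and UGT76C2, a cytokinin glucosyltransferase (r from 0.971 to 0.955). The mean signal of UGT76C2, which fell most of the 5, was 894.8 for Col-0, 799.3 for SPL13 and 393.1 for mSPL13. Log2 fold changes of the 5 genes in mSPL13 ran from -0.98 (UGT76C2) to -0.26 (AT3G16990) versus SPL13. Versus Col-0 they ran from -1.13 to -0.31 for the same 2 genes. After each genotype's mean was removed, r with IAA20 was between 0.604 and 0.928 for the 5 genes. Choosing genes by r over the same 9 arrays can also favour likeness within genotypes, so nothing is read from these values.

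For HAT2 the nearest were AT1G28570, AT1G28600, AT4G11210, SMZ, an AP2-type floral repressor, and AT4G25780 (r from 0.97 to 0.953). AT1G28570 had mean signals of 751.9 for Col-0, 617.2 for SPL13 and 323 for mSPL13. With the genotype means removed these r values were between 0.149 for AT4G25780 and 0.821 for SMZ. Nothing is read from these values either, for the same reason.

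For GH3.3 the nearest were AT1G26270, AT2G43370, the myosin XI-I, AT2G25650 and AT5G17440 (r from 0.948 to 0.924 over 9 arrays, and 0.891 to 0.971 with the genotype means removed). For GH3.5 the nearest were AT1G18460, AT3G52360, AT1G10650, GH3.17 and AT1G47380 (r from 0.955 to 0.897, and 0.919 to 0.988 with the means removed). Both enzymes differed little between genotypes, so choosing genes by r over the 9 arrays already selects for likeness within genotypes, and nothing further is read from the second set of values. GH3.17, of the same enzyme family, had r = 0.908 with GH3.5 over the 9 arrays, and both had their lowest signal on Col-0 replicate 3.

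The values of the 4 genes were recomputed under 20 other processing settings. These settings reuse the same arrays, and the genes were chosen with their calls known, so the calls describe the processing and add no test. HAT2 was lower and called in both mSPL13 comparisons under all 20, with log2 fold changes of -0.98 to -0.73 versus SPL13 and -1.21 to -0.93 versus Col-0. IAA20 was lower and called under 19 and was not among the probe sets tested under the strictest filter, with -1.39 to -0.79 and -1.51 to -0.88. GH3.3 and GH3.5 were not called under any of the 20. GH3.3 ranged from 0.01 to 0.26 versus SPL13 (0.01 without SPL13 replicate 1), and from 0.23 to 0.48 versus Col-0. GH3.5 ranged from -0.21 to -0.04 and from -0.36 to -0.11.

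**Figure D5:**
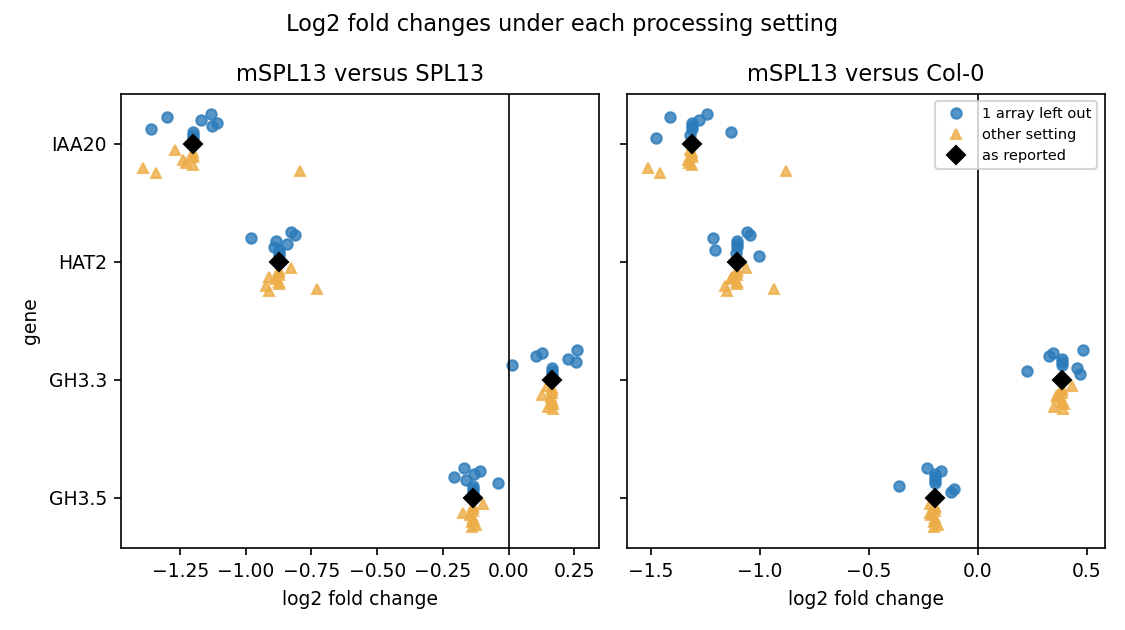
Log2 fold changes of the 4 genes in mSPL13 versus SPL13 (left) and versus Col-0 (right), as reported (diamonds), with 1 array left out (circles) and under the other settings (triangles). The triangles farthest to the right for IAA20 (-0.79 and -0.88) and HAT2 (-0.73 and -0.93) are the pseudocount at the 40th percentile.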

How the data were processed

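RNA of whole seedlings was measured on 9 single-channel Affymetrix arrays, 3 for each of Col-0, SPL13 and mSPL13, grouped by the labels. The authors deposited linear intensity values from GCOS and MAS5, per the submitters' processing notes. MAS5 summarises the probes of a set to 1 signal, and versions, settings and scanner files were not given in the sources used here. Median signals were 176 to 191.7, and pairs of arrays correlated at 0.959 to 0.988. Precision is limited by the number of arrays.

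Of the 22810 probe sets, 64 controls were left out of the fit. The table pairs 13513 with 1 gene (13436 found in the TAIR10.1 gene table), 503 with several and 8730 with none listed. Signals became log2(signal + 20.7), with 20.7 the 20th percentile of all values, and 13647 probe sets with a mean above the 40th percentile were tested. limma 3.58.1 (R 4.3.3) fitted 1 mean for each genotype over the 9 arrays (eBayes with trend, 6 residual and 7.92 prior degrees of freedom). Calls were made at a Benjamini-Hochberg adjusted p under 0.05 over all probe sets tested. The code was tested on simulated data. Python 3.11.15 with pandas 2.3.3 and scipy 1.17.1 made tables, and matplotlib 3.10.9 the figures.

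The genes, lists and settings were chosen with earlier results of these data known. Named genes were the 4 genes, tested members of the Aux/IAA, homeodomain-leucine zipper and GH3 lists, called members (otherwise the 2 with the smallest p) of the other auxin lists, and the 5 genes most like each of the 4. AT1G14130 and the genes below the filter were named outside that rule or as the remainder of a list. The alternatives were other pseudocounts, filters and normalizations, no trend, a fit on just the groups compared, a replicate block, array weights and each array left out.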

Additional observations from a re-analysis of the deposited data

How the results depend on the processing

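Of the 297 values recomputed for the 4 genes and for the counts of other auxin genes called, 289 moved by less than 1 SD between replicates (for counts, by no more than 1.5 times), 8 moved by more and 0 called values changed sign. With the pseudocount at the 40th percentile, IAA20 was at -0.79 versus SPL13 and -0.88 versus Col-0, and HAT2 at -0.93 versus Col-0. A larger pseudocount shrinks changes of low signals by its construction. The count of other auxin genes called in mSPL13 versus SPL13 was 2 with no filter on low signal, where IAA34 was added. In mSPL13 versus Col-0 it was between 1 and 3 with 1 array left out, as GH3.17 was added, also lower, without Col-0 replicate 3 and UGT74D1 dropped out in 4 such fits (those without replicates 1 or 2 of Col-0, and without replicates 1 or 3 of mSPL13). In SPL13 versus Col-0 the sign of uncalled changes turned for IAA20 in 2 fits and for GH3.5 in 3, all with 1 array left out (up to 0.07 and 0.03). IAA20 could not be given a value with the filter at the 60th percentile, which removed it.

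With the replicate number as a block, IAA20 stayed at -1.20 and -1.31 and HAT2 at -0.87 and -1.11 in the mSPL13 comparisons, and calls over all probe sets were 431 against 414 versus SPL13 and 624 against 596 versus Col-0. Deviations of arrays with the same number correlated at -0.06 to 0.15, and 4 of 9 arrays correlated best with their own number. Whether arrays with the same number shared a batch cannot be told from these values. Over the 20 settings, calls among all probe sets ranged from 200 to 688 versus SPL13, from 248 to 903 versus Col-0, and from 1 to 148 in SPL13 versus Col-0 (7 as reported).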
